A study of Mus musculus with 15 samples.

Results

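The genes described here encode proteins of synaptic vesicles and of their docking, priming and fusion, with relatives that serve other membranes. They were taken from the deposited tables by gene symbol alone, as the Syt, Sv2, Syn, Syp, Syngr, Stx, Stxbp, Vamp, Cplx, Rab3, Unc13, Bsn and Pclo genes. The Snap genes taken were Snap23, Snap25, Snap29, Snap47 and Snap91 only, and the Rims genes Rims1, Rims3 and Rims4 only. This gave 72 of the 21566 genes in the table of sorted cells and 62 of the 10781 genes in the table of the time series. All 62 were also among the 72. The 10 genes found in the sorted table alone were Syt2, Syt6, Syt12, Syt15, Syngr2, Stx4a, Stx11, Stxbp2, Unc13d and Vamp8, and their change with age was not analysed here. Of the 72 genes 71 passed the filter on low values, which was a mean of 5 normalized reads or more, and Syt15 did not. All 62 passed it in the time series, whose table starts at a mean far above that filter.

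RNA came from ventral midbrain cells purified by fluorescence-activated cell sorting. The mice carried Pitx3-GFP, so that green fluorescent protein (GFP) labels the cells expressing Pitx3, a transcription factor of dopamine neurons. In the sorted experiment, 3 libraries of GFP-positive (GFP+) cells were set against 3 of GFP-negative (GFP-) cells, all from embryonic day 14 (E14). In the time series GFP+ cells were taken at 3 ages, E14, E16 and newborn (P0), each with 3 libraries, which gives 15 libraries in all. Every group carried the Pitx3-GFP genotype and its zygosity was not given. The labels name dopamine neurons as the cell type of the GFP- libraries too, against their dopamine markers below. Midbrains from 3 litters were used and it was not stated that each replicate was a litter, so p-values measure the spread between these libraries, which may be partly technical. Each library was a pool of sorted cells, so fewer cells of a type and less RNA per cell cannot be told apart.

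Release at a synapse runs through a set of proteins with separate tasks. Synaptobrevin (Vamp) on the vesicle and syntaxin and SNAP-25 on the plasma membrane zip into the SNARE complex that fuses the membranes, Munc13 (Unc13) proteins help to assemble it, complexins clamp and promote it, and synaptotagmins sense calcium. RIM, Bassoon, Piccolo and Rab3 hold vesicles at the active zone, and synapsins tether the reserve pool. Midbrain dopamine neurons release dopamine from axonal varicosities and from their dendrites, and in the embryo their axons are still growing toward the forebrain. Sv2 proteins are vesicle transporters of the major facilitator family, and Sv2c is known for its strong expression in basal ganglia and dopamine cells.

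The sorted libraries held 17369191 to 22374153 reads, recovered from the spacing of the deposited values. The values of each time series library summed to 23580600 to 25712800 normalized reads, and their depth in reads was not established. The 10 dopamine neuron markers were all higher in GFP+ than in GFP- cells, and their summed level was 86252 to 97669 normalized reads in GFP+ against 5054 to 6554 in GFP- libraries. The 12 progenitor and radial glia, 8 microglia and 8 erythroid markers were all lower, with sums of 7428 to 8989 against 83311 to 97848 for progenitors, 36.2 to 71.2 against 551 to 674 for microglia and 318 to 506 against 13819 to 14994 for erythroid cells. Tyrobp, a microglial gene, was at 0 in all GFP+ libraries. Of 10 pan-neuronal markers 5 were higher and 1 lower, with sums of 196108 to 199241 in GFP+ and 138454 to 158258 in GFP- libraries, and these markers were thus present in both fractions. Markers of GABAergic neurons were lower in GFP+ cells for 7 of 8 genes, with sums of 2204 to 2381 against 5011 to 5979, and those of glutamatergic, cholinergic and serotonergic neurons for 9 of 10, with 4019.6 to 4979 against 6924 to 7556. In the time series the pan-neuronal sum was 211853 to 230308 at E14 and 190514 to 202368 at P0, with 2 of 10 markers higher and 5 lower. The dopamine sum went from 110332 to 118105 up to 228825 to 287619, with a rise of Aldh1a1 from a mean of 20609 to 167996 and of Slc6a3 from 10187 to 30141. Of the 10 dopamine markers 3 rose and 6 fell (Ddc, Pitx3, Nr4a2, En1, Foxa2 and Lmx1b), and their median log2 fold change was -0.67. Vim and Nes, of progenitors, changed by -1.62 and -1.30 from E14 to P0, while Fabp7 of radial glia rose from 700.0, 717 and 848 to 1438, 1081 and 3293 normalized reads, with P0 replicate 3 apart from the others. Mbp of oligodendrocytes rose by 0.69. The part of these cell type differences in the results below was not tested.

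Between E14 and P0 most release machinery genes rose in the GFP+ cells. Of 62 genes 39 were higher at P0, 8 were lower and 15 did not pass the test (limma-trend on log2(normalized reads + 1), Benjamini-Hochberg adjusted over all 10781 genes, threshold 0.05). Over all genes tested 25.1% were higher and 30.6% lower, and the median log2 fold change was -0.05 over all genes and 0.35 over the release genes. The change was at least 2-fold in 12 of the 39 higher genes and in none of the 8 lower ones (limma, 0 of 62), against 5.36% higher and 2.43% lower by that size among all genes. All 47 called genes had groups that did not overlap between E14 and P0, as did 98% of all genes called in this comparison. With the first interval taken alone 36 genes were called, against 33% of all genes. Of these 32 were higher at E16 than at E14 and 4 lower, against 15.2% and 17.8%. In the second interval 17 rose and 5 fell from E16 to P0, against 16.8% and 16.6%, and 3 fell without E16 replicate 1 or 3 or without any 1 of the P0 libraries. A test of any change over the 3 ages called 49 of 62 genes, and 59.7% of all genes.

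The share of each library taken by these genes showed the same order. It was 0.572 ± 0.0272% of normalized gene reads at E14, 0.693 ± 0.0136% at E16 and 0.761 ± 0.0380% at P0 (mean ± SD, n = 3 libraries), and the 3 ages did not overlap. In the sorted experiment it was 0.509 ± 0.0254% in GFP- and 0.585 ± 0.0205% in GFP+ cells, again without overlap. These shares were not tested. Among the 39 genes that rose, P0 replicate 3 had the highest value of its age for 28 and P0 replicate 1 the lowest for 26, and E14 replicate 3 the lowest of its age for 28. P0 replicate 3 was also the library with the highest Fabp7, and the part of other cells in this order was not tested. Leaving out each library in turn left 35 to 42 genes higher and 7 or 8 lower at P0.

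**Figure D1:**
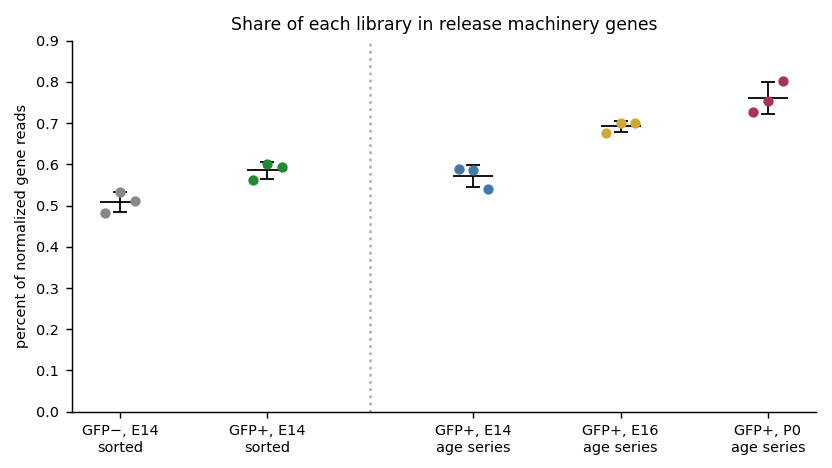
Percent of each library's normalized gene reads that fell in the release machinery genes (vertical axis, from 0), with 1 point per library, and the horizontal line and whiskers giving mean and SD of 3 libraries. The dotted line separates the sorted experiment from the age series, which were normalized separately, and the shares climb from 0.572% at E14 to 0.761% at P0.

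Of 6 genes of the vesicle membrane 5 rose, and Sv2c had the largest rise of the set. Counts by role from E14 to P0, here and below, stand against 25.1% higher and 30.6% lower among all genes. Sv2c, encoding a vesicle glycoprotein (chromosome 13, 95954594 to 96132577 on GRCm38), was at 775, 581 and 462 normalized reads at E14, 2797, 3158 and 3085 at E16 and 4536, 6026 and 8186 at P0. Every library of an age was above every library of the age before it. From E14 to P0 the log2 fold change was 3.35 (SE 0.19, limma adjusted p = 8.11e-09), with 2.34 (SE 0.19) before E16 and 1.01 (SE 0.19) after it. Its paralog Sv2b was at 2479, 2442 and 2445 normalized reads at E14, 3478, 3192 and 3592 at E16 and 4554, 5262 and 6332 at P0. Sv2b rose by 1.12 (SE 0.10, limma adjusted p = 5.33e-07) and its ages did not overlap. The third paralog, Sv2a, was at 5292, 5855 and 5184 normalized reads at E14, 5760.1, 5853 and 6650.2 at E16 and 5561, 6116 and 6981 at P0. Its ages overlapped and the difference was 0.19 (limma adjusted p = 0.0954), so the 3 Sv2 genes ran from no call to the steepest rise of the set. Syp, encoding synaptophysin (chromosome X, 7638471 to 7653256), was at 6521, 6888 and 6740.5 normalized reads at E14, 10808, 9665 and 10897 at E16 and 14775, 15386 and 17688 at P0, and rose by 1.24 (SE 0.08, limma adjusted p = 3.12e-08) without overlap. Of the exon bases of Syp 16.8% are shared with the opposite strand gene Gm14703, and the use of strand in the counting was not given. The synaptogyrins, vesicle proteins related to synaptophysin, rose as well. Syngr1 changed by 1.40 (SE 0.11) and Syngr3 by 0.94 (SE 0.17).

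To show the sequence around the start of the gene that rose most and of the one that fell most, the windows from 250 bases before to 50 after the annotated start are given (RefSeq, GRCm38.p6), read 5′ to 3′ on the gene strand with CG dinucleotides in capitals. Sv2c lies at chr13:96132528-96132827 on the minus strand and Stx6, an endosomal and Golgi syntaxin, at chr1:155158453-155158752 on the plus strand.
Sv2c: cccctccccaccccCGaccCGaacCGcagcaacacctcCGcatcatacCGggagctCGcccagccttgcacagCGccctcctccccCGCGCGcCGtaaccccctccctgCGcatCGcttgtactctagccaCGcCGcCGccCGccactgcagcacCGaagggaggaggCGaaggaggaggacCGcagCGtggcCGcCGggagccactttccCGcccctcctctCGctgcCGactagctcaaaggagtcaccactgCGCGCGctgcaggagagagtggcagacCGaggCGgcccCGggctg
Stx6: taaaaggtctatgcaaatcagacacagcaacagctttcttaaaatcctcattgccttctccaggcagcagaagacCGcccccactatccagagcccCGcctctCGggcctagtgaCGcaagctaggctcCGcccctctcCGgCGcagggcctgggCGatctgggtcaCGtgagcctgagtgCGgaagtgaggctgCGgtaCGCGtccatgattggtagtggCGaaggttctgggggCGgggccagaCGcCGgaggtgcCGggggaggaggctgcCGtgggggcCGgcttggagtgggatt
The Sv2c window holds 32 CG dinucleotides and the Stx6 window 20. Windows were found for 57 of the 72 genes, and their median was 22 CG dinucleotides and 64.3% G and C, against 7 and 52.7% over 27025 genes. The median was 18.5 in the 30 genes with a window that rose from E14 to P0 and 20.0 in the 7 that fell. TATAAA on the gene strand was found in 3.51% of the release genes (Rab3b and Stx2) and in 9.77% of all genes.

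Synapsins, the phosphoproteins that bind vesicles to each other, moved unequally. Syn2 was at 545, 475 and 398 normalized reads at E14, 806, 841 and 836 at E16 and 1046, 977 and 842 at P0. All 3 E16 and P0 libraries were above those of E14, and the change to P0 was 1.02 (SE 0.12, limma adjusted p = 5.76e-06). Syn3 rose by 0.43 (SE 0.13), though 14.1% of its exon bases are shared with Timp3 on the opposite strand. Syn1 was at 184, 173 and 237 normalized reads at E14, 248, 312 and 255 at E16 and 241, 187 and 275 at P0. Its E14 and P0 libraries overlapped and the difference was 0.24 (limma adjusted p = 0.247).

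Among the synaptotagmins 6 of 12 rose, 2 fell and 4 did not pass the test. Syt1, the fast calcium sensor of release, was at 3784, 3762 and 3250.3 normalized reads at E14, 6218, 5763 and 6382 at E16 and 6103, 7875 and 10476 at P0. No E14 library reached the others, and Syt1 rose by 1.15 (SE 0.14, limma adjusted p = 1.15e-05). P0 replicate 3 was the highest and P0 replicate 1 lay within the E16 range, and from E16 to P0 the change was 0.38 (limma adjusted p = 0.053). Syt17, a synaptotagmin that lacks a transmembrane segment, was at 1170.1, 1179.6 and 907 normalized reads at E14, 2042, 2599 and 2325 at E16 and 2549, 2978 and 3276 at P0, and rose by 1.44 (SE 0.12, limma adjusted p = 3.26e-07). Syt3 and Syt9 rose by 0.94 (SE 0.14) and 0.81 (SE 0.14). Smaller rises were seen for Syt5 at 0.33 (SE 0.11) and Syt11 at 0.24 (SE 0.09). Syt5 lost its call without E14 replicate 2 or 3 or P0 replicate 2 or 3 (adjusted p up to 0.116 over 19 alternatives), and Syt11 lost its call without E14 replicate 1 or 3 or P0 replicate 2 or 3 (adjusted p up to 0.135 over 19 alternatives). Syt4, which binds membranes but does not act as a fast calcium sensor and sits on dense-core vesicles, was the most abundant of these genes per kilobase, at 18434, 19622 and 18622 normalized reads at E14, 18055, 17214 and 18671 at E16 and 15084, 16062 and 15257 at P0. It fell by 0.29 on the log2 scale (SE 0.07, limma adjusted p = 0.00335) without overlap, and 14.5% of its exon bases are shared with Gm26658 on the opposite strand. Syt14, of the calcium-independent synaptotagmins, was at 2647, 2624 and 2992 normalized reads at E14, 2725, 2423 and 2579.6 at E16 and 2203, 1966 and 1760.3 at P0, and changed by -0.48 (SE 0.09, limma adjusted p = 4.74e-04). Syt7, Syt10, Syt13 and Syt16 did not pass the test, with log2 differences of 0.10, -0.15, 0.22 and -0.07.

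The SNARE proteins of fast release rose to different degrees. Snap25, encoding the plasma membrane SNARE that completes the complex (chromosome 2, 136713453 to 136782428), was at 3043, 3283 and 2655 normalized reads at E14, 5322, 4806 and 5149 at E16 and 7141, 7864 and 9421 at P0. The 3 ages did not overlap and the rise was 1.44 (SE 0.10, limma adjusted p = 6.15e-08). Vamp2, the main synaptobrevin of forebrain synapses, was at 455, 405 and 428 normalized reads at E14, 612, 703 and 617 at E16 and 684, 669 and 684 at P0. It rose by 0.66 (SE 0.09, limma adjusted p = 4.45e-05), with no call after E16 (0.08, limma adjusted p = 0.554). Vamp1, its paralog, was at 145, 128 and 116 normalized reads at E14, 157, 195 and 171 at E16 and 297, 295 and 310.1 at P0, with the lowest P0 library far above the highest of E16, and rose by 1.21 (SE 0.14, limma adjusted p = 5.76e-06). Stx1a, encoding a syntaxin partner of SNAP-25, changed less. It was at 2102, 1973 and 2136 normalized reads at E14, 2629.8, 2499 and 2809 at E16 and 2575, 2377 and 2659 at P0, a rise of 0.29 (SE 0.08, limma adjusted p = 0.0047) with no call after E16 (-0.06, limma adjusted p = 0.569). Stx3, a syntaxin used in dendritic exocytosis and at ribbon synapses, was at 1081, 1039 and 1084 normalized reads at E14, 1102, 1124 and 1013 at E16 and 2181, 2117 and 1864 at P0. E14 and E16 libraries overlapped, while every P0 library was above both, and the change to P0 was 0.94 (SE 0.08, limma adjusted p = 4.92e-07). Stx2 had the same course, at 238, 215 and 202 normalized reads at E14, 197, 240.4 and 169 at E16 and 338, 354 and 342 at P0, and rose by 0.66 (SE 0.14, limma adjusted p = 0.00113).

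SNARE genes of other membranes went both ways. Stx6, a syntaxin of the trans-Golgi network and early endosome (chromosome 1, 155158715 to 155208256), was at 3557, 3639 and 3780.1 normalized reads at E14, 2756, 2689 and 2848 at E16 and 2481, 2396 and 2378 at P0, and each age was below the one before it. It fell by 0.60 on the log2 scale (SE 0.07, limma adjusted p = 4.17e-06), the largest fall of the set, and it was the only one of the 62 genes called lower in both intervals, against 4.9% of all genes. After E16 Stx6 lost its call without E14 replicate 1 or 2, E16 replicate 1 or 3 or P0 replicate 1, 2 or 3 (adjusted p up to 0.129 over 19 alternatives), and it kept that call in 10 of the 19. The late endosomal Stx8 was at 656, 651 and 703 normalized reads at E14, 650.0, 606 and 631 at E16 and 468, 441 and 524 at P0, and changed by -0.49 (SE 0.10, limma adjusted p = 5.92e-04). Its E14 and P0 libraries were far apart and E16 lay close to E14. Stx17, which drives fusion of autophagosomes, rose by 0.93 (SE 0.10), Stx16 of the trans-Golgi by 0.39 (SE 0.09) and the endosomal Stx7 by 0.34 (SE 0.07). Stx5a, of transport between endoplasmic reticulum and Golgi, was at 1239, 1286 and 1259 normalized reads at E14, 971, 1048 and 983 at E16 and 1306, 1446 and 1414 at P0. It fell to E16 and rose again to P0, so that E14 and P0 differed by 0.14 (limma adjusted p = 0.143). Stx12 and Stx18 were not called, at 0.18 and -0.17, and 32.3% of the exon bases of Stx18 are shared with Gm42858 and Nsg1 on the opposite strand. Of the SNAP-25 relatives, Snap29 was at 1670.0, 1624 and 1677 normalized reads at E14, 1735, 1666 and 1900.1 at E16 and 1314, 1449 and 1445 at P0. It changed by -0.24 (SE 0.08) with P0 below both earlier ages, and Snap29 lost its call without P0 replicate 1 (adjusted p up to 0.0707 over 19 alternatives). Snap47 rose by 0.22 (SE 0.08), and Snap47 lost its call without E14 replicate 1 or 2 or P0 replicate 3 (adjusted p up to 0.115 over 19 alternatives). Of its exon bases 11.6% are shared with Jmjd4 on the opposite strand. Snap23, the widely expressed counterpart of Snap25, differed by 0.14 between E14 and P0 and was not called. Vamp4 of the Golgi and endosomes rose by 0.34 (SE 0.08), and Vamp3, the cellubrevin of recycling endosomes, was not called at -0.14. Snap91, encoding the clathrin adaptor AP180 and no SNARE, rose by 0.47 (SE 0.08).

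Both complexins rose. Cplx2 was at 748, 728 and 665 normalized reads at E14, 1251, 1340.3 and 1489 at E16 and 1609, 2340.4 and 3202 at P0. The 3 ages did not overlap, the P0 libraries were widely spread, and the change was 1.68 (SE 0.17, limma adjusted p = 2.24e-06). Cplx1 was at 268, 218 and 172 normalized reads at E14, 381, 365 and 431 at E16 and 411, 436 and 703 at P0. It was higher at P0 by 1.21 (SE 0.19, limma adjusted p = 1.19e-04), with P0 replicate 3 apart from the others, and the step after E16 was 0.36 (limma adjusted p = 0.174). Stxbp5, the inhibitory tomosyn, rose by 0.27 (SE 0.09). Stxbp5 lost its call without E14 replicate 2 or 3 or P0 replicate 1 or 2 (adjusted p up to 0.0814 over 19 alternatives). Stxbp4 was at 441, 430.1 and 391 normalized reads at E14, 386, 364 and 375 at E16 and 326, 340.0 and 346 at P0, and changed by -0.32 (SE 0.10). Stxbp4 lost its call without E14 replicate 1 or 2 (adjusted p up to 0.0625 over 19 alternatives). Stxbp3, Stxbp5l and Stxbp6 were not called, at 0.44, -0.24 and 0.32.

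At the active zone 7 of 9 genes rose, Rab3c fell and Bsn was not called. Rims1, encoding the scaffold RIM1 that links Rab3 on vesicles to Munc13, was at 2159, 1912 and 1921 normalized reads at E14, 3195, 2976 and 3257 at E16 and 3356, 3695 and 4195 at P0, and rose by 0.90 (SE 0.09, limma adjusted p = 1.26e-06). Pclo, encoding Piccolo, was at 2029, 1838 and 1662 normalized reads at E14, 3945, 2993 and 3339 at E16 and 3716, 3356 and 3225 at P0. It rose by 0.90 (SE 0.10, limma adjusted p = 6.06e-06), and E16 and P0 libraries overlapped. Bsn, encoding the related scaffold Bassoon, was at 635, 589 and 571 normalized reads at E14, 532, 667 and 607 at E16 and 663, 692 and 781 at P0, and the E14 to P0 difference was 0.25 (limma adjusted p = 0.0601). Rims3 and Rims4, short RIM proteins, rose by 0.65 (SE 0.09) and 0.32 (SE 0.09). Rab3a, the main Rab of synaptic vesicles, was at 1495, 1575 and 1379.7 normalized reads at E14, 1895, 2249 and 2157 at E16 and 2000.4, 2235 and 2539.7 at P0, and rose by 0.60 (SE 0.10, limma adjusted p = 1.37e-04). Rab3b was at 301, 312 and 234 normalized reads at E14, 376, 554 and 458 at E16 and 559, 568 and 596 at P0, and rose by 1.03 (SE 0.14, limma adjusted p = 3.51e-05). Rab3d rose by 0.36 (SE 0.12), and Rab3d lost its call without E14 replicate 2 or P0 replicate 2 or 3 (adjusted p up to 0.0991 over 19 alternatives). Rab3c was at 16149.9, 16556 and 16285 normalized reads at E14, 14779.9, 13017 and 14407 at E16 and 13263, 12975 and 12299 at P0. All P0 libraries were below all E14 libraries and the change was -0.35 (SE 0.07, limma adjusted p = 0.0011). Within 1 small family, 3 Rab3 genes thus rose and 1 fell, under every scaling tried.

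The Munc13 genes, whose proteins open syntaxin for priming, split in the same manner. Unc13a was at 2337, 2278 and 2249.7 normalized reads at E14, 2005, 2592 and 2428 at E16 and 2830.2, 2615 and 2891 at P0. It rose by 0.28 (SE 0.09), and Unc13a lost its call without P0 replicate 3 (adjusted p up to 0.0525 over 19 alternatives). Unc13b was at 4697, 4774 and 4712 normalized reads at E14, 4053, 3764 and 3823 at E16 and 4039, 3905 and 3625 at P0. The E14 libraries were above all others and the change was -0.30 (SE 0.07, limma adjusted p = 0.00225). Unc13c rose by 0.47 (SE 0.12). The promoter windows of Unc13a and Syn1 are shown because they held parts of RE1, the element bound by REST, a repressor of neuronal genes (RefSeq, GRCm38.p6, 5′ to 3′ on the gene strand, RE1 parts in capitals). Unc13a lies at chr8:71671708-71672007 and Syn1 at chrX:20920869-20921168, both on the minus strand.
Unc13a: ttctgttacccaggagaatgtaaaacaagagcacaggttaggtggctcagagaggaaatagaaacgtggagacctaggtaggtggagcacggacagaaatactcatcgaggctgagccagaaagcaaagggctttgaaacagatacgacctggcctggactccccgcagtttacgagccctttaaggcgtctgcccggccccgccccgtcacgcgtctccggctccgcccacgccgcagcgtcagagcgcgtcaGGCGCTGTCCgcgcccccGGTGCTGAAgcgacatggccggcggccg
Syn1: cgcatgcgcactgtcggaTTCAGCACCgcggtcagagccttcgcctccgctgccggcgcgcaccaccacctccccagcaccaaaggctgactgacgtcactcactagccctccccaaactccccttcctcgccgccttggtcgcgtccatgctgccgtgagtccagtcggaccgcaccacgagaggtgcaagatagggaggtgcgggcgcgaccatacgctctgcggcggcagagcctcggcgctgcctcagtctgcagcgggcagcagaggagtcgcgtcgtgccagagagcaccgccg
The letters searched on both strands were TTCAGCACC for the left part of RE1, and the consensus letters of its right part. The left part was found in 2 of 57 windows (3.51%), Syn1 and Unc13a, against 0.433% of 27025 windows, and the right part in Unc13a (1.75%) against 0.167%. In Unc13a both are read on the other strand, the right part starting 5 bases into the transcript and the left part, as GGTGCTGAA, 23 bases into it. In Syn1 the left part starts 232 bases before the start. TGACGTCA, the cAMP response element, was in 3.51% of release gene windows (Stxbp3 and Syn1) and in 2.03% of all windows. These are matches of letters and no binding was measured here.

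**Figure D2:**
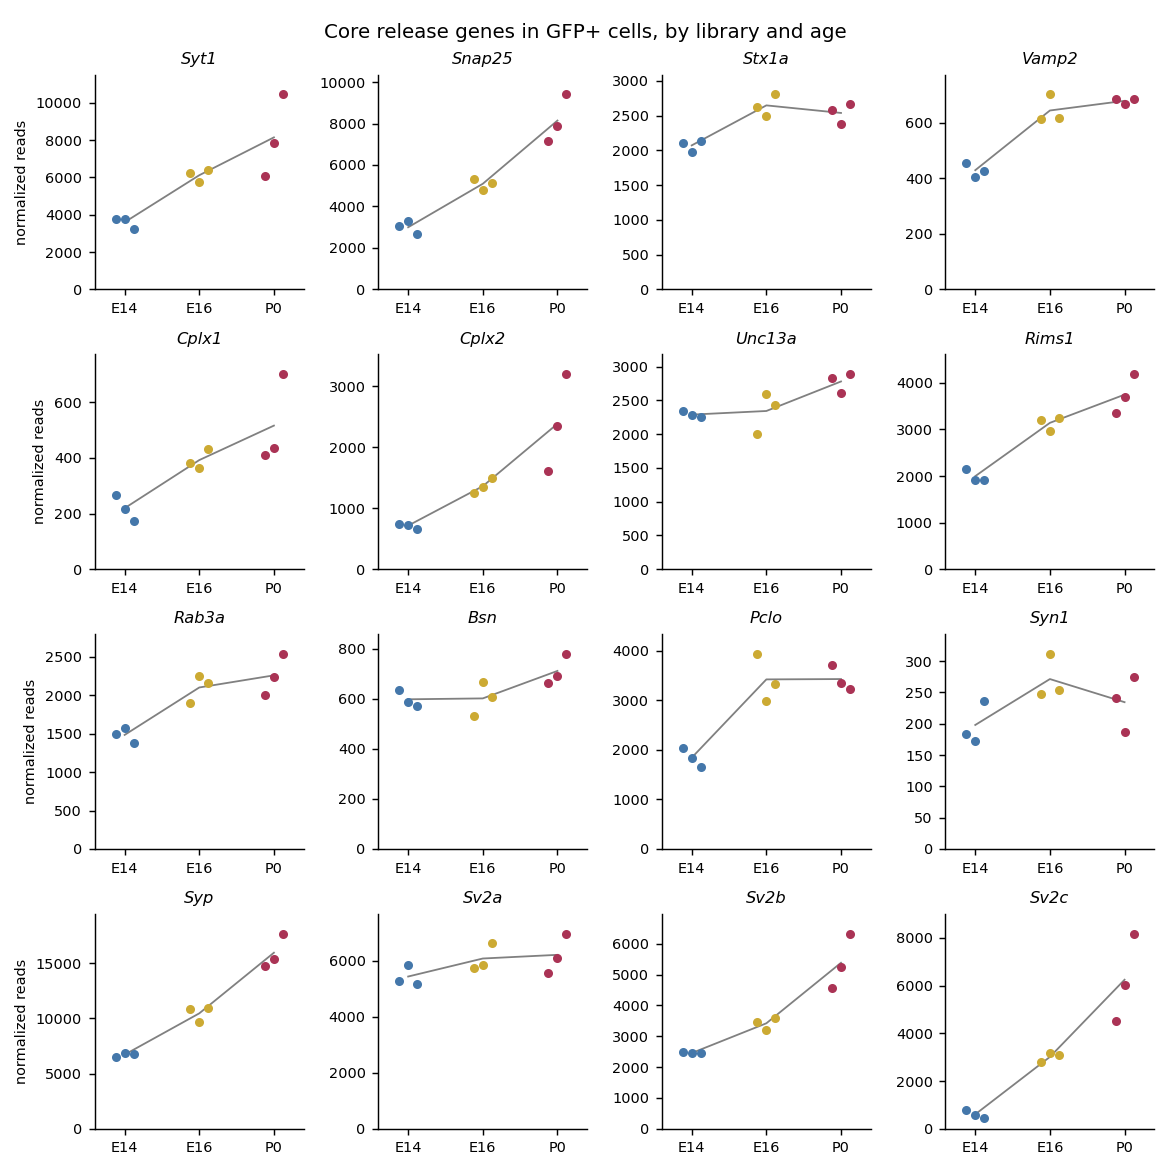
Normalized reads of 16 core release genes (vertical axis of each panel, from 0) at E14, E16 and P0 in GFP+ cells, with 1 point per library and a line through the means of 3 libraries. Sv2c, Cplx2, Snap25, Syp and Sv2b climb at each step. Stx1a, Vamp2 and Pclo were called higher at E16 with no call after it. Bsn, Sv2a and Syn1 have overlapping ages or no call.

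The timing of the rise differed between genes. Of the 62 genes 11 were called higher in both intervals, namely Sv2c, Cplx2, Snap25, Syt17, Syngr1, Syp, Vamp1, Sv2b, Stx17, Rims1 and Snap91, against 5.5% of all genes. Both calls held under all 19 alternatives for 7 of the 11. After E16 Rims1 lost its call without E14 replicate 2, E16 replicate 1, 2 or 3 or P0 replicate 2 or 3 (adjusted p up to 0.164 over 19 alternatives), Syt17 lost its call without E14 replicate 1 or 2, E16 replicate 1 or 3 or P0 replicate 2 or 3 (adjusted p up to 0.158 over 19 alternatives) and Snap91 lost its call without E16 replicate 1 or 3 or P0 replicate 2 or 3 (adjusted p up to 0.112 over 19 alternatives). Before E16 Snap91 lost its call without E14 replicate 2 or 3, E16 replicate 1, 2 or 3 or P0 replicate 2 (adjusted p up to 0.158 over 19 alternatives) and Vamp1 lost its call without E14 replicate 2 or 3 or E16 replicate 2 or 3 (adjusted p up to 0.112 over 19 alternatives). Another 21 were called higher up to E16 with no call after it (8.87% of all genes), and 17 of them held the earlier call under all 19 alternatives, and 5 (Stx3, Stx2, Stx16, Unc13a and Snap23) were called higher after E16 with no call before it (8.47% of all genes). Of these 5, Stx16 lost its call without P0 replicate 3 (adjusted p up to 0.0511 over 19 alternatives) and Unc13a lost its call without E14 replicate 1, 2 or 3, E16 replicate 1 or 3 or P0 replicate 1, 2 or 3 (adjusted p up to 0.179 over 19 alternatives), which kept it in 8 of the 19. A call in 1 interval does not show a difference between intervals, so the change after E16 was tested against the change before it. This called 11 of 62 genes, 4 with a higher and 7 with a lower change after E16, against 8% and 5.62% of all genes. A shared E16 group enters both changes with opposite sign. The intervals need not be of equal length and the changes were not divided by time, so they are not rates. The difference, after minus before, was -1.33 (SE 0.33, limma adjusted p = 0.0169) for Sv2c, -1.0 (limma adjusted p = 0.00989) for Syn3, -0.88 (limma adjusted p = 0.00715) for Pclo, -0.76 (limma adjusted p = 0.0289) for Syt17 and -0.68 (limma adjusted p = 0.012) for Rims3, all of which rose before E16. It was 0.91 (SE 0.14, limma adjusted p = 0.00173) for Stx3, 0.90 (limma adjusted p = 0.0253) for Stx2, 0.81 (limma adjusted p = 0.00239) for Stx5a and 0.78 (limma adjusted p = 0.0233) for Snap23, whose P0 libraries were all above their E16 libraries. Without E16 replicate 3 the count was 2 higher and 2 lower, without P0 replicate 2 it was 2 and 4, without P0 replicate 1 4 were lower and without P0 replicate 3 12 were. Stx3, Stx5a, Pclo and Syn3 kept their calls under all 18 alternatives.

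**Figure D3:**
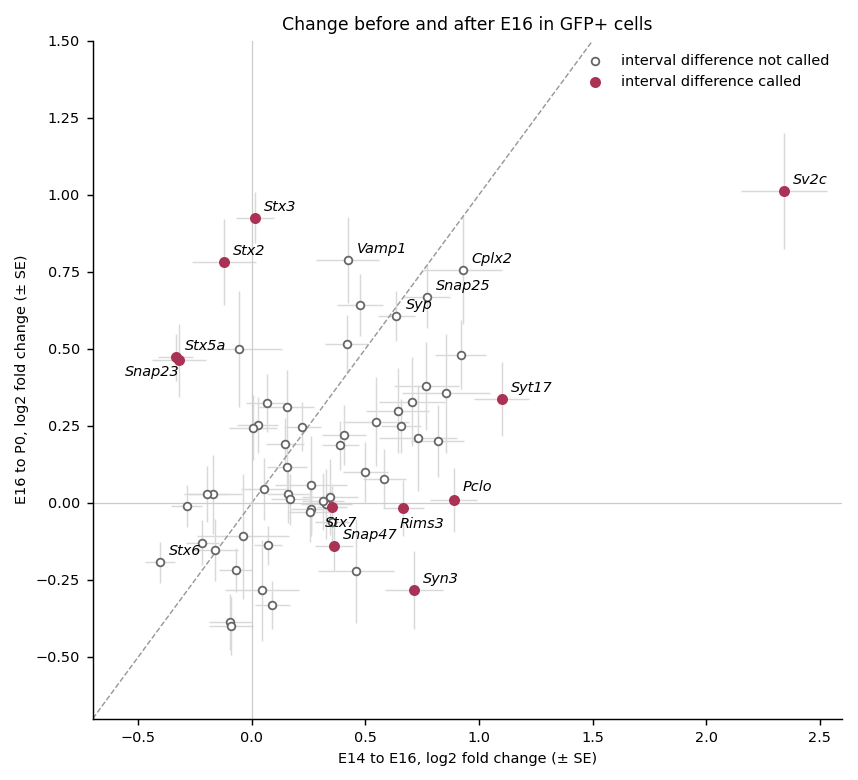
Log2 fold change from E14 to E16 (horizontal axis) against E16 to P0 (vertical axis) for the 62 release genes in GFP+ cells, with bars of 1 SE, the dashed line where both are equal, and filled points for the 11 genes whose 2 changes differed. Stx3, Stx2, Stx5a and Snap23 lie above the line and Sv2c, Syn3, Pclo, Syt17, Rims3, Stx7 and Snap47 below it, and both axes rest on the same E16 libraries.

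Set against the GFP- cells of the E14 midbrain, the release genes were called in both directions. Of 71 genes tested 18 were higher in GFP+ cells, 11 were lower and 42 did not pass the test, against 12.7% higher and 18% lower among all 18260 genes. Of all genes called here 98.3% had groups that did not overlap. The median log2 difference was -0.03, and 0.02 over all genes. With libraries divided by their totals the split was 13 higher and 16 lower, so the balance of directions depended on the scaling, and without GFP-negative replicate 1 it was 17 lower. Most of the core fusion genes did not pass the test. Snap25 was at 2239.9, 2722 and 2789.6 normalized reads in GFP- and 2078, 2369 and 2306 in GFP+ libraries, a difference of -0.19 (limma adjusted p = 0.162) with overlap. Syt1 was at 2326, 2538 and 2304 normalized reads in GFP- and 2423, 2914 and 2944 in GFP+ libraries, a difference of 0.20 (limma adjusted p = 0.119). For Syp the difference was 0.22 (limma adjusted p = 0.17) and for Vamp2 0.15 (limma adjusted p = 0.411). Sv2a, Syn1, Cplx1, Cplx2, Bsn, Pclo and Rab3a were not called either, with log2 differences of 0.15, -0.07, -0.48, -0.18, 0.30, 0.25 and -0.26.

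The synaptotagmins held the genes most enriched in GFP+ cells. Of 15 tested 7 were higher and 1 lower, against 12.7% and 18% of all genes. Syt17 was at 113, 184 and 171 normalized reads in GFP- and 887, 1145 and 1072 in GFP+ libraries. The lowest GFP+ library was several times the highest GFP- library, and the difference was 2.74 (SE 0.17, limma adjusted p = 3.37e-07). Syt10, which regulates secretion of growth factor vesicles in olfactory neurons, was at 64.6, 45.5 and 31.5 normalized reads in GFP- and 175, 120.3 and 133 in GFP+ libraries, higher by 1.62 (SE 0.26, limma adjusted p = 5.98e-04). Syt4 was at 8335, 7641 and 8468 normalized reads in GFP- and 17089, 16774 and 17105 in GFP+ libraries, and higher by 1.06 (SE 0.08, limma adjusted p = 9.85e-07). Syt13 was at 1982, 2117 and 1518 normalized reads in GFP- and 3147, 3767 and 3656 in GFP+ libraries, and higher by 0.92 (SE 0.12, limma adjusted p = 1.29e-04). In all 4 the groups did not overlap. Syt14, Syt16 and Syt7 were higher by 0.62 (SE 0.08), 0.54 (SE 0.10) and 0.45 (SE 0.11), and Syt7 lost its call without GFP-positive replicate 3 (adjusted p up to 0.0686 over 17 alternatives). The exception was Syt6, at 189, 225 and 253 normalized reads in GFP- and 99.3, 109 and 87.2 in GFP+ libraries, which was lower, at -1.16 (SE 0.16, limma adjusted p = 1.84e-04).

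The other 11 genes higher in GFP+ cells had several roles. Unc13b was at 2510.1, 2238 and 2180.1 normalized reads in GFP- and 4255, 3321 and 3439 in GFP+ libraries, and higher by 0.66 (SE 0.10, limma adjusted p = 4.44e-04). Sv2b was at 1126, 1081 and 1291 normalized reads in GFP- and 1776, 1895 and 1852 in GFP+ libraries, and higher by 0.66 (SE 0.09, limma adjusted p = 1.25e-04). Rab3c was at 9495, 9595 and 9841 normalized reads in GFP- and 15321, 14611 and 14946 in GFP+ libraries, and higher by 0.63 (SE 0.07, limma adjusted p = 4.58e-05). Rims1 was higher by 0.55 (SE 0.08), Stxbp5l, a tomosyn, by 0.55 (SE 0.13) and Snap91 by 0.47 (SE 0.08). These 6 genes had no overlap between groups. Stx3, Vamp4, Stx1a, Stx16 and Unc13a were higher by 0.38, 0.30, 0.30, 0.29 and 0.23 on the log2 scale. Each of these 5 lost its call with libraries divided by their totals and with single libraries left out. Stx3 lost its call without GFP-negative replicate 2 or 3 or GFP-positive replicate 1 or 2 (adjusted p up to 0.111 over 17 alternatives), Vamp4 lost its call without GFP-negative replicate 2 or GFP-positive replicate 1 or 2 (adjusted p up to 0.0928 over 17 alternatives), and Stx1a lost its call without GFP-negative replicate 1 or 3 or GFP-positive replicate 2 or 3 (adjusted p up to 0.119 over 17 alternatives). Stx16 lost its call without GFP-negative replicate 1 or 3 or GFP-positive replicate 1 or 2 (adjusted p up to 0.111 over 17 alternatives), and Unc13a lost its call without GFP-negative replicate 1 or 3 or GFP-positive replicate 1, 2 or 3 (adjusted p up to 0.23 over 17 alternatives). Unc13a also lost its call with no filter on low values, with TMM scaling factors and in edgeR's test, and kept it in 7 of the 17. Syn3, Unc13c and Rab3d had the smallest differences, at -0.00, -0.02 and 0.02.

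The genes lower in GFP+ cells included several members used outside neurons. Vamp8, a SNARE of endosomes and of secretory cells, was at 28.0, 28.0 and 25.4 normalized reads in GFP- and 1.20, 0 and 0 in GFP+ libraries, which is 87 reads in all GFP- libraries and 1 read in all GFP+ libraries. The ratio of GFP- to GFP+ was 82.5, with an exact 95% counting interval of 14.4 to 3296. Syngr2, the synaptogyrin of non-neuronal cells, was at 33.4, 33.3 and 38.5 normalized reads in GFP- and 8.38, 1.85 and 5.32 in GFP+ libraries, and lower, at -2.70 (SE 0.45, limma adjusted p = 7.24e-04). Stxbp2, a syntaxin binding protein of epithelial and blood cells, was at 143, 149.6 and 125 normalized reads in GFP- and 26.3, 44.4 and 30.8 in GFP+ libraries, and lower, at -2.04 (SE 0.23, limma adjusted p = 3.13e-05). Snap23 was at 592, 522 and 535 normalized reads in GFP- and 351, 226 and 233 in GFP+ libraries, and lower, at -1.05 (SE 0.16, limma adjusted p = 3.62e-04). Stxbp3, Stx2, Vamp3 and Stxbp6 were lower, at -0.70 (SE 0.16), -0.66 (SE 0.12), -0.50 (SE 0.10) and -0.59 (SE 0.09). None of these 8 genes had overlapping groups. The markers of progenitor, microglial and erythroid cells given above were lower in the same libraries, and their part in these differences was not tested. The other 3 lower genes were Sv2c, Syn2 and Syt6. Sv2c was at 477, 589.8 and 649 normalized reads in GFP- and 256, 435 and 343 in GFP+ libraries, and lower, at -0.75 (SE 0.18, limma adjusted p = 0.00789). Syn2 was at 553, 899 and 902 normalized reads in GFP- and 355, 467 and 469 in GFP+ libraries, and lower, at -0.84 (SE 0.18, limma adjusted p = 0.00449). Without the variance trend 9 sorted calls were lost. Sv2c and Syn2 lost theirs (limma adjusted p = 0.0631 and 0.0507), as did Stxbp5l (0.0522) and also Syt7, Stx3, Vamp4, Stx1a, Stx16 and Unc13a. Most of the GABAergic and other neuron markers given above were lower in the same libraries, with 1 GABAergic marker higher. Their part in these differences was not tested. Unc13d, Stx4a, Stx11, Syt2 and Syt12 were not called, and Syt15, under the filter, was at 5.38, 6.13 and 9.62 normalized reads in GFP- and 1.20, 1.85 and 1.06 in GFP+ libraries.

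**Figure D4:**
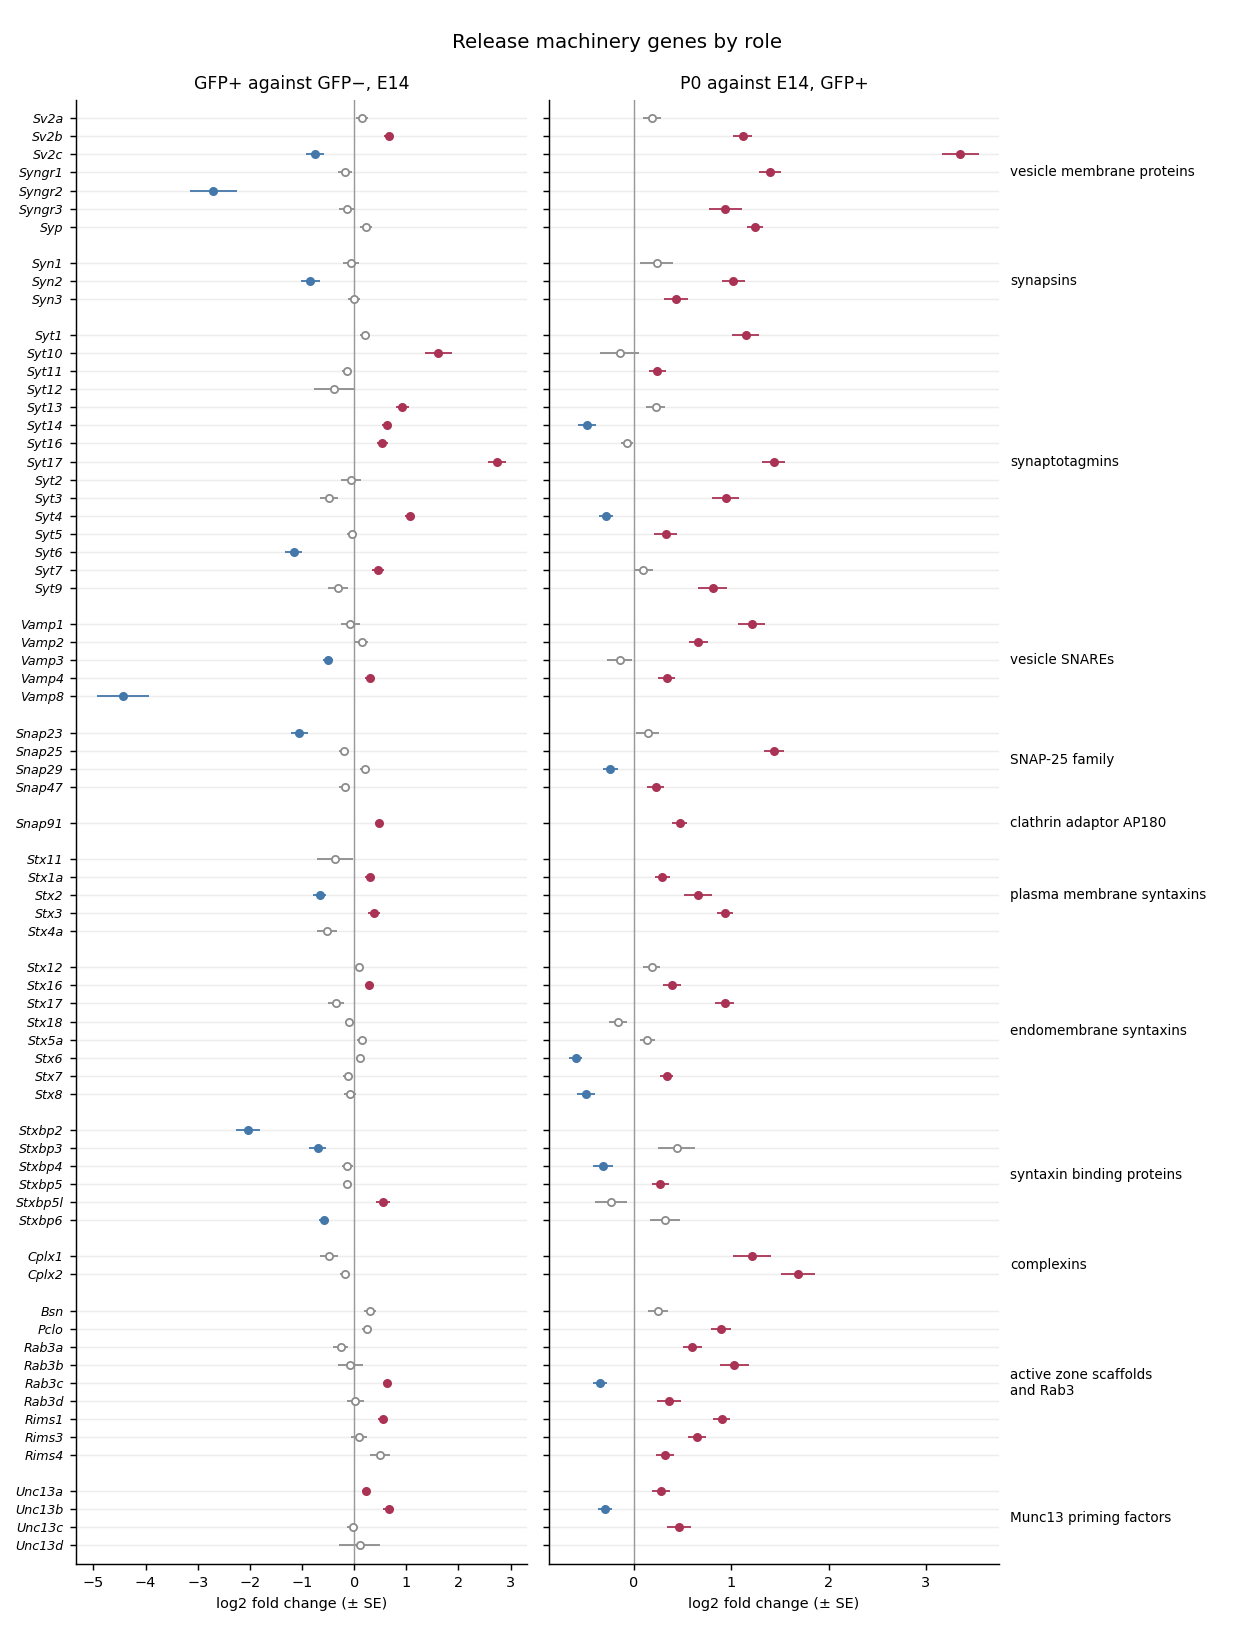
Log2 fold change with SE (horizontal axes) for release genes (rows, grouped by role), with GFP+ against GFP- cells at E14 on the left and P0 against E14 in GFP+ cells on the right. Filled red points passed the test as higher, filled blue points as lower and open points did not pass, and rows with no point on the right are the 10 genes found in the sorted table alone less Syt15, which is not drawn. In the panel on the right most points lie above 0 on the horizontal axis, with Sv2c the farthest, while the left panel has calls on both sides.

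For the 62 genes in both tables the calls of the 2 experiments can be set side by side, as description. The experiments were normalized separately. E14 GFP+ cells enter both comparisons, with opposite sign, and whether these cells came from the same animals was not given. Of the genes higher in GFP+ cells at E14, 9 rose to P0, 4 fell and 5 were not called with age. Among the 9, Stx3, Vamp4, Stx1a, Stx16 and Unc13a lost the sorted call with libraries divided by their totals. The 4 that fell were Syt4, Syt14, Rab3c and Unc13b, with sorted differences of 1.06, 0.62, 0.63 and 0.66 and changes to P0 of -0.29, -0.48, -0.35 and -0.30. The reverse held for 3 genes that were lower in GFP+ cells at E14 and rose to P0. Sv2c stood at -0.75 and 3.35, Syn2 at -0.84 and 1.02, and Stx2 at -0.66 and 0.66. The sorted calls of Sv2c and Syn2 were among those lost without the variance trend. No gene was called lower in both (limma, 0 of 62). The same counts over all genes were not made, so these counts have no background to be read against. Syt17 and Sv2b were the members with the largest differences among the 9 called higher in both, at 2.74 and 1.44 for Syt17 and 0.66 and 1.12 for Sv2b.

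To compare levels between genes, normalized reads were divided by the kilobases of annotated exon of each gene. At P0 Syt4 had the highest level of the 62 genes, 3974 ± 134 normalized reads per kilobase (mean ± SD, n = 3 libraries), followed by Syp at 3061 ± 295. Stx12 and Snap47 came next, at 2499.8 ± 146 and 2490.1 ± 138 per kilobase, and did not differ beyond their spread. Below them were Stx7 at 1624 ± 79.0, Sv2a at 1342 ± 154, Syt13 at 1228 ± 51.5 and Snap25 at 1199 ± 172, and the last 3 were within their spread of each other. At E14 the order differed. Syt4 was again highest at 4854 ± 164 per kilobase, Syp was at 1289 ± 35.5 and ranked 5, and Snap25 was at 441 ± 46.7 and ranked 16. Sv2c went from rank 54 at E14, with 62.5 ± 16.3 per kilobase, to rank 16 at P0, with 644 ± 189. Within the Sv2 family Sv2a was above Sv2b and Sv2c at both ages, with Sv2b at 293 ± 2.44 and 642 ± 107 per kilobase. At P0 the levels of Sv2b and Sv2c were within their spread. Among the lowest at P0 were Stxbp4 at 28.5 ± 0.86 and Vamp1 at 29.6 ± 0.79 per kilobase.

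The wider release pathway was read from lists of genes outside the set. Of 81 such genes in the time series 47 rose and 10 fell from E14 to P0, with a median of 0.31, against 25.1% and 30.6% of all genes. Of 85 tested in the sorted cells 31 were higher and 6 lower in GFP+ cells, with a median of 0.12, against 12.7% and 18% of all genes. The counts of each list below stand against the same shares. Genes that take SNARE complexes apart rose in 3 of 4 cases, Napb by 1.37, Napg by 0.77 and Nsf, the ATPase itself, by 0.69. Of 14 subunits and partners of the proton pump that loads vesicles 7 rose and 1 fell, led by Atp6v1g2 at 1.42, Atp6v1a at 0.85 and Atp6ap2 at 0.73. Atp6v1f fell, at -0.33. The genes of vesicle recovery by endocytosis had 12 higher and 4 lower of 23, with the neuronal dynamin Dnm1 at 0.91, endophilin Sh3gl2 at 0.90 and Pacsin1 at 0.86, and with Sh3gl1, Ston2 and Itsn1 at -0.46, -0.42 and -0.38. In the sorted cells 7 of the 23 were higher and none lower, with Dnajc6, encoding auxilin, at 1.12 and Ston2 at 1.02.

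Further active zone and priming genes rose in 10 of 16 cases from E14 to P0 and fell in none (limma, 0 of 16), with the calcium-binding Doc2b at 1.25, the liprin Ppfia4 at 1.21 and Tspoap1 at 0.96. In GFP+ against GFP- cells 11 of 17 were higher, with Cadps2, a priming factor of dense-core vesicles, at 1.99, Rph3a, a Rab3 effector, at 1.65 and Erc2 at 1.16, while Doc2b and Lin7a were lower at -1.20 and -0.34. Presynaptic calcium channel genes rose in 6 of 9 cases and fell in 2, with Cacnb2 at 1.28, Cacna1e at 0.84 and Cacna1a at 0.65 against Cacna2d3 at -0.56 and Cacnb3 at -0.30. At E14 6 of these 9 were higher in GFP+ cells, led by Cacna2d3 at 2.50. Of 12 other vesicle proteins 7 rose and 2 fell, with Synpr, encoding synaptoporin, at 1.92 and Rab27b at 1.43 against Scamp2 at -0.67. Synpr was lower in GFP+ cells at E14, at -3.03. Among the transporters that fill vesicles, Slc18a2 for monoamines and Slc17a6 for glutamate rose by 0.34 and 0.49, and Slc32a1 for GABA changed by -0.56 and was called lower.

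Some of these genes also give circular RNAs, loops without free ends whose reads span a back-splice junction. The time series table listed 43 circRNAs from 22 release genes among 7528, and 8 of them, from 6 genes, had the mean of 2 or more normalized reads needed for a test. A circRNA's number is its place in its own table, and no positions came with it. One of the 8 was called from E14 to P0, against 3.19% of 1630 circRNAs tested (1.96% lower). This was the Stx6 circle circ_00070_Stx6, at 68.7, 45.3 and 55.7 normalized reads at E14, 36.0, 24.8 and 38.2 at E16 and 0, 21.2 and 19.0 at P0. Every P0 library was below every E16 library and those below all of E14, as for the Stx6 gene counts. The log2 change on the log2(value + 1) scale was -2.90 (SE 0.77, limma adjusted p = 0.0469), with P0 replicate 1 listed at 0. All circRNA values of P0 replicate 1 summed to 18484 normalized reads, against 22609 to 23645 in the E14 libraries. Depth in reads was not established for the circRNA libraries, and a 0 may be a value too low to be listed. Relative to its gene the change of circ_00070_Stx6 was -2.30 (SE 0.99, limma adjusted p = 0.278). On this ratio none of the 8 was called between any pair of ages (limma, lowest adjusted p = 0.0935, E14 to P0), where 0.706% of 1558 circRNA to gene ratios were called from E14 to P0 and 0.0642% from E16 to P0. The call of circ_00070_Stx6 was lost without any 1 of the 6 E14 and E16 libraries, with a pseudocount of 0.5 and with a mean of at least 10. Without P0 replicate 1 the change of circ_00070_Stx6 was -1.43 (limma adjusted p = 0.0260). circ_00076_Syt14, the circRNA of this set with the highest mean, was at 30.5, 33.8 and 30.1, 39.3, 38.2 and 35.2 and 51.2, 19.6 and 52.2 normalized reads over the 3 ages and was not called (0.25, SE 0.36), whereas the Syt14 gene fell. The Unc13b circles circ_00082_Unc13b and circ_00164_Unc13b were not called, at 0.05 (SE 0.32) and -0.03 (SE 0.40). circ_00825_Syt16 was at 3.05, 0 and 0, 6.0, 7.63 and 2.29 and 11.6, 8.15 and 11.9 normalized reads, a difference of 2.84 (SE 0.83, limma adjusted p = 0.0689). In GFP+ against GFP- cells, the authors' deposited table lists 30 circRNAs of these genes and gives an adjusted p for 7, from Rims1, Snap91, Stx6 and Syt14, none of which passes 0.05 before or after adjustment. Of the 23 without an adjusted p, circ_01287_Rims1 was at 0 in all GFP- libraries. Its log2 fold change was 4.52, with an unadjusted p of 0.0335 in the authors' test. The share passing among all circRNAs of that table was not counted here.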

How the data were processed

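The authors deposited normalized reads per gene and per circRNA, treated here as a signal in which each library is divided by 1 factor. GRCm38, mm10, DESeq2, TopHat2 and Trim Galore are named in the submitters' processing notes, with no roles. The read counter, the use of strand and the circRNA caller are not given in the sources used here. A table of the authors' own circRNA test in sorted cells holds log2 fold changes and p-values, per the file headers, and values from it are named as such. Extraction used the miRNeasy micro kit, Ribo-Zero and ScriptSeq v2 on total RNA, per the labels' protocols.

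Values as log2(normalized reads + 1) were tested two-sided by limma-trend (limma 3.58.1 in R 4.3.3), for genes with a mean of 5 or more and circRNAs with a mean of 2 or more, adjusted over all tested. The 6 sorted libraries were fitted alone and the 9 time series libraries together. Fold changes on this scale understate the change of low genes. Dividing each sorted library by the step between its values gave whole reads within 0.1 for 100% of values. Sorted columns carry a number that fits 2 samples' labels, so they were assigned to their group only. Reads had no molecular identifiers, so the counting interval covers counting error alone. The script was tested on simulated data. Positions and exon lengths are from GENCODE M21 (GRCm38).

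Members and lists were chosen with earlier results of these data known. Named genes were core release genes, up to 12 called members per direction, the extremes of each role, members called in opposite directions, and up to 3 called genes per direction of each list outside the set. The alternatives were other pseudocounts, filters, scalings and tests, a replicate block, and each library left out. Some genes of the set are included in the counts and shares and are not reported here by name.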

Additional observations from a re-analysis of the deposited data

Results flagged for a closer look

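In 11 of the 62 release genes the log2 change after E16 differed from the change before it by the contrast of both intervals (limma adjusted p under 0.05, against 13.6% of all genes). The values are the change after E16 minus the change before it, not divided by time, and the E16 libraries enter both. A higher change was called in 6.45% of the release genes and a lower one in 11.3%, against 8% and 5.62% of all genes. The 4 genes with the higher change after E16 were Stx3 at 0.91 (SE 0.14), Stx2 at 0.90 (SE 0.24), Stx5a at 0.81 (SE 0.13) and Snap23 at 0.78 (SE 0.20). The 7 with the lower change were Sv2c at -1.33 (SE 0.33), Syn3 at -1.0 (SE 0.22), Pclo at -0.88 (SE 0.18), Syt17 at -0.76 (SE 0.21), Rims3 at -0.68 (SE 0.16), Snap47 at -0.50 (SE 0.14) and Stx7 at -0.37 (SE 0.12). Of the 4, Stx5a and Snap23 were lowest at E16, with means of 1001 and 331 normalized reads, and Stx3 and Stx2 differed little between E14 and E16. Stx7 and Snap47 were at the edge of the threshold, with limma adjusted p = 0.0496 and 0.0344. Only Stx3, Stx5a, Pclo and Syn3 kept their calls under all 18 alternatives.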

How the results depend on the processing

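From E14 to P0, 39 of the 47 called genes kept their call and direction under all 19 alternatives, as did 29 of 36 from E14 to E16, 15 of 22 from E16 to P0, 4 of 11 for the difference between intervals (18 alternatives) and 20 of 29 in GFP+ against GFP- cells (17 alternatives). No called gene changed direction under any of them. Without the variance trend, 11 genes were higher in GFP+ cells in place of 18. On recovered reads edgeR's quasi-likelihood test (edgeR 4.0.16) gave 17 higher and 12 lower and DESeq2 (1.42.0) 19 and 13. No scaling moved the median of all genes by over 0.1 on the log2 scale. With only the 2 ages compared, 3 genes fell from E16 to P0 in place of 5. With libraries left out one at a time the counts were 14 to 17 higher and 11 to 17 lower for GFP+ against GFP-, 26 to 34 and 3 to 6 for E14 to E16, 13 to 19 and 3 to 6 for E16 to P0, 35 to 42 and 7 to 8 for E14 to P0, 2 to 4 and 2 to 12 for the difference between intervals, 43 to 51 for any change, and 0 to 1 for circRNAs from E14 to P0. The count of called circRNAs from E14 to P0 was 0 with a pseudocount of 0.5 and 0 with a mean of at least 10, and from E16 to P0 it was 1 with no filter and 1 on the gene table's scale. For the ratio to the gene it was 1 from E14 to P0 with no filter. Taking the 50 most abundant genes out of the total raised the shares to 0.574% in GFP-, 0.669% in GFP+, 0.659% at E14, 0.794% at E16 and 0.874% at P0. The cause of these differences was not tested, other than fewer libraries or features by construction. Count tests were not run on the time series and circRNA tables, whose lowest values are 38 and 2 reads, so that whole reads were not accepted there.

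Whether the replicate numbers pair the libraries was not established. Deviations from group means correlated at 0.0976 to 0.367 between same-numbered sorted libraries and at -0.113 to 0.245 in the time series. Between differently numbered libraries of different groups the range was -0.297 to 0.229 in the sorted experiment and -0.2999 to 0.1495 in the time series. Not every sorted library correlated best with its own number. With a replicate block the sorted comparison gave 25 higher and 20 lower genes, and E14 to P0 gave 39 and 8.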
